A study of Mus musculus with 15 samples.

Results

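The genes described are 10 genes of antigen presentation by major histocompatibility complex (MHC) class II, chosen by name and found by matching the gene identifiers of the count files to symbols. They are H2-Aa, H2-Ab1, H2-Eb1, Cd74, Ciita, H2-DMa, H2-DMb1, H2-DMb2, H2-Oa and H2-Ob, that is 10 of the 55416 gene identifiers in the files. RNA of whole blood from cheek bleeds was sequenced in 15 mice, 1 library per mouse. All were C57BL/6 (females by the study's methods, with no age in the labels), and the labels give every mouse, untreated ones included, the same orthotopic tongue transplant of 4MOSC1, a carcinogen-induced mouse oral squamous cell carcinoma line, grown for 10 days. The untreated group (5 mice) had neither antibody nor surgery. The early ND and late ND groups (5 mice each) received 2 doses of αCTLA-4, an antibody against a brake on T cell activation, with an early or a late neck dissection (ND), the surgical removal of the lymph nodes that drain the tongue. The study's text and its figure legend differ on whether late ND mice were bled before or after their operation, so late ND names the group either way. No ND group without αCTLA-4 and no αCTLA-4 group without ND stood among these libraries, so antibody and surgery cannot be told apart against untreated mice.

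MHC class II molecules are pairs of an α and a β chain that carry peptides of ingested proteins to the cell surface, where CD4+ T cells read them. In resting mice they are made mainly by B cells, dendritic cells and some monocytes, so that in blood most of their RNA is generally held to come from B cells. The invariant chain Cd74 escorts new class II molecules and blocks their groove, H2-DM exchanges the remnant of that chain for peptide, and H2-O restrains H2-DM. Transcription depends on the coactivator Ciita, which binds no DNA itself but is recruited by RFX, CREB and NF-Y factors seated on the X and Y boxes of class II promoters. The study asked whether ablating the lymph nodes that drain a tumor impairs its response to checkpoint inhibition. Among its readouts was blood RNA of mice with neck dissection early or late around that treatment. In such blood, class II genes are a readout of antigen-presenting cells.

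Of the members, 8 lie together on chromosome 17 in GRCm39, apart from Ciita (on chromosome 16) and Cd74. From low to high coordinates on chromosome 17 the order was H2-Oa, H2-DMa, H2-DMb2, H2-DMb1, H2-Ob, H2-Ab1, H2-Aa and H2-Eb1, of which H2-Aa alone is on the minus strand. H2-Oa spans chr17:34311314-34314328 and H2-Eb1 ends at 34535648. H2-DMb2 (chr17:34362197-34370529) and H2-DMb1 (chr17:34372046-34379204) are neighbours that arose by duplication, so read pairs shared by both copies are uncertain. Whether reads were counted by strand is not given in the sources used here, and 25.9% of the exon bases of H2-Oa lie opposite exons of BC051537, 17.0% of H2-DMb1 opposite Gm64535, 11.8% of H2-DMa opposite Brd2 and 9.55% of H2-Eb1 opposite Gm20513 and H2-Aa. For Ciita this share was 5.73% (Dexi) and for H2-Aa 2.75% (H2-Eb1), and 3.50% of Cd74 exon bases are shared with Mir5107 on the same strand.

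Promoter stretches around a match to Y box letters are shown for those class II chain, H2-DM and H2-O genes that had one. Ratios that involve these genes are compared below, though H2-Ab1 and H2-DMa, denominators of several ratios, are not among them. Whether Ciita acts through these stretches was not tested. They are RefSeq sequences of GRCm38.p6, an older build than that of the counts, read 5′ to 3′ on the strand of each gene, and cover 72 bases around a Y box match. Capitals mark 2 motifs, AACNGATG from the X box and TGATTGG from the Y box (the reverse of the CCAAT box), which were searched on both strands from 250 bases before to 50 bases after the start site. The letters and their spacing were chosen with these promoters in view.
H2-Eb1 (plus strand, chr17:34305756-34305827): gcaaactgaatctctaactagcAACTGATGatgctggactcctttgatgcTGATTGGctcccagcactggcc
H2-DMb1 (plus strand, chr17:34153078-34153149): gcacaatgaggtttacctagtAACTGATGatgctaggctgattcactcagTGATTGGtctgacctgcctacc
H2-DMb2 (plus strand, chr17:34145107-34145178): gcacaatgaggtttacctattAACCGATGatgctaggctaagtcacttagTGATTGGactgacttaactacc
H2-Aa (minus strand, chr17:34287852-34287923): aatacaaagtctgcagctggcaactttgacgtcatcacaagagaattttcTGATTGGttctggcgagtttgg
H2-Oa (plus strand, chr17:34092284-34092355): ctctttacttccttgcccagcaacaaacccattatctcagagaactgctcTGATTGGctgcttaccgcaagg
H2-Ob (plus strand, chr17:34238796-34238867): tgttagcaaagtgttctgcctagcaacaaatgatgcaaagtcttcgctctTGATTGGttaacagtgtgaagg

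In these 6 promoters, shown because they held the Y letters, those letters stood 45 to 92 bases before the start site. Both motifs occurred in H2-Eb1, H2-DMb1 and H2-DMb2, with the X letters 28 or 29 bases before the Y letters. Neither motif stood in the 2 RefSeq promoters of H2-DMa, and H2-Ab1 and Ciita had no promoter in the reference set. Chromosome 18, which holds Cd74, was left out when the members were searched, so Cd74 was not examined. Of all 32851 promoters in that set, 2.32% held the X letters, 7.82% the Y letters and 7 promoters (0.0213%) both in this order 10 to 40 bases apart. Those 7 belonged to H2-Eb1, H2-DMb1, H2-DMb2, the further class II gene H2-Eb2, H2-M10.4, G3bp2 and BC051142. The windows of H2-DMb1 and H2-DMb2 were alike at 63 of 72 bases. A match is a description of the letters, and its absence says only that these letters are not in the window.

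Depth was 5527108 to 13924361 gene counts per library, and the members together held 5929 to 60116 of them, or 0.107% to 0.459% of a library. Hemoglobin genes took 14.9% to 64.1% of counts, with less in late ND blood. Levels are therefore given as CPM, counts scaled to a common library size after TMM normalization, which scales each library so that most genes do not differ. Rn18s-rs5, a gene of 18S ribosomal RNA, reached no more than 766 CPM in untreated 2, late 2 and late 3 but 13402 CPM or more in the other 12 libraries, and the fits were repeated without these 3. Genes that define B cells (Cd79a), monocytes (Csf1r), neutrophils (S100a8), T cells (Cd3e), platelets (Pf4) and red cells (Alas2) were counted in every library. Nothing in the labels ties libraries to extraction or sequencing batches.

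The classical chains led, with the invariant chain above them. Cd74 was at 832, 636, 627, 522 and 514 CPM in untreated mice 1 to 5. It was at 772, 795, 468, 646 and 588 CPM in early ND mice and at 576, 743, 633, 402 and 503 CPM in late ND mice. The 3 ranges overlapped over most of their width, and the lowest and the second lowest of all 15 values were late 4 and early 3.

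H2-Aa, the α chain of the I-A molecule, was at 452, 358, 360, 316 and 256 CPM in untreated mice. In early ND mice it was at 421, 511, 289, 378 and 304 CPM, and in late ND mice at 290, 423, 346, 186 and 212 CPM. Late 4 and late 5 lay below every other library, whereas late 2 was the third highest of the 15, so that late ND mice spread more widely (CV 33.3%) than untreated (20.6%) or early ND mice (23.8%). H2-Ab1, the β chain of I-A, ran from 220 to 410 CPM in untreated mice (median 298), from 244 to 418 CPM in early ND mice (median 317) and from 185 to 347 CPM in late ND mice (median 260). H2-Eb1, the β chain of I-E, ran from 203 to 385 CPM, from 214 to 375 CPM and from 155 to 302 CPM in the same order. C57BL/6 mice are known not to express the I-E α chain, and H2-Ea had 0 to 8 counts per library against 738 to 7537 for H2-Eb1.

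Ciita, the master regulator, was at 127, 92.1, 94.7, 79.9 and 52.9 CPM in untreated mice. It was at 107, 122, 82.7, 99.9 and 84.9 CPM in early ND mice and at 97.5, 117, 90.6, 60.9 and 71.9 CPM in late ND mice. The untreated group holds both the highest and the lowest library, and the other groups fall between them.

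Of the peptide editors, H2-DMa and H2-DMb1 varied least. H2-DMa, the α chain of H2-DM, ranged over all libraries from 34.2 to 62.1 CPM, with means of 43.0 ± 5.24 (SD, n = 5) in untreated, 48.3 ± 10.8 (SD, n = 5) in early ND and 46.6 ± 7.96 (SD, n = 5) in late ND mice. H2-DMb1, a β chain, was at 37.4, 36.5, 40.6, 31.8 and 30.0 CPM in untreated mice, at 44.1, 44.9, 29.3, 37.2 and 34.5 CPM in early ND mice and at 44.1, 49.3, 42.4, 31.4 and 32.1 CPM in late ND mice. Its highest library was 1.68 times its lowest. H2-DMb2, the other β chain, was at 110, 93.5, 82.9, 78.8 and 60.9 CPM in untreated mice, at 116, 132, 77.9, 93.1 and 84.5 CPM in early ND mice and at 72.5, 115, 93.1, 42.5 and 59.4 CPM in late ND mice. Here the highest library was 3.10 times the lowest, and late 1, late 4 and late 5 lay below all early ND mice while late 2 and late 3 did not.

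The H2-O genes, which in the mouse are mostly a B cell product, varied most. H2-Ob was at 183, 182, 194, 144 and 108 CPM in untreated mice, at 212, 273, 171, 212 and 142 CPM in early ND mice and at 146, 229, 165, 74.1 and 96.6 CPM in late ND mice. H2-Oa was lower, at 12.9 to 24.5 CPM in untreated, 16.6 to 31.1 CPM in early ND and 7.68 to 25.8 CPM in late ND mice. From the lowest library (late 4) to the highest (early 2), H2-Oa differed by a factor of 4.05 and H2-Ob by 3.69. Within the late ND group the CV of H2-Oa was 49.4% and that of H2-Ob 42.7%, against 17.1% for H2-DMa.

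**Figure D1:**
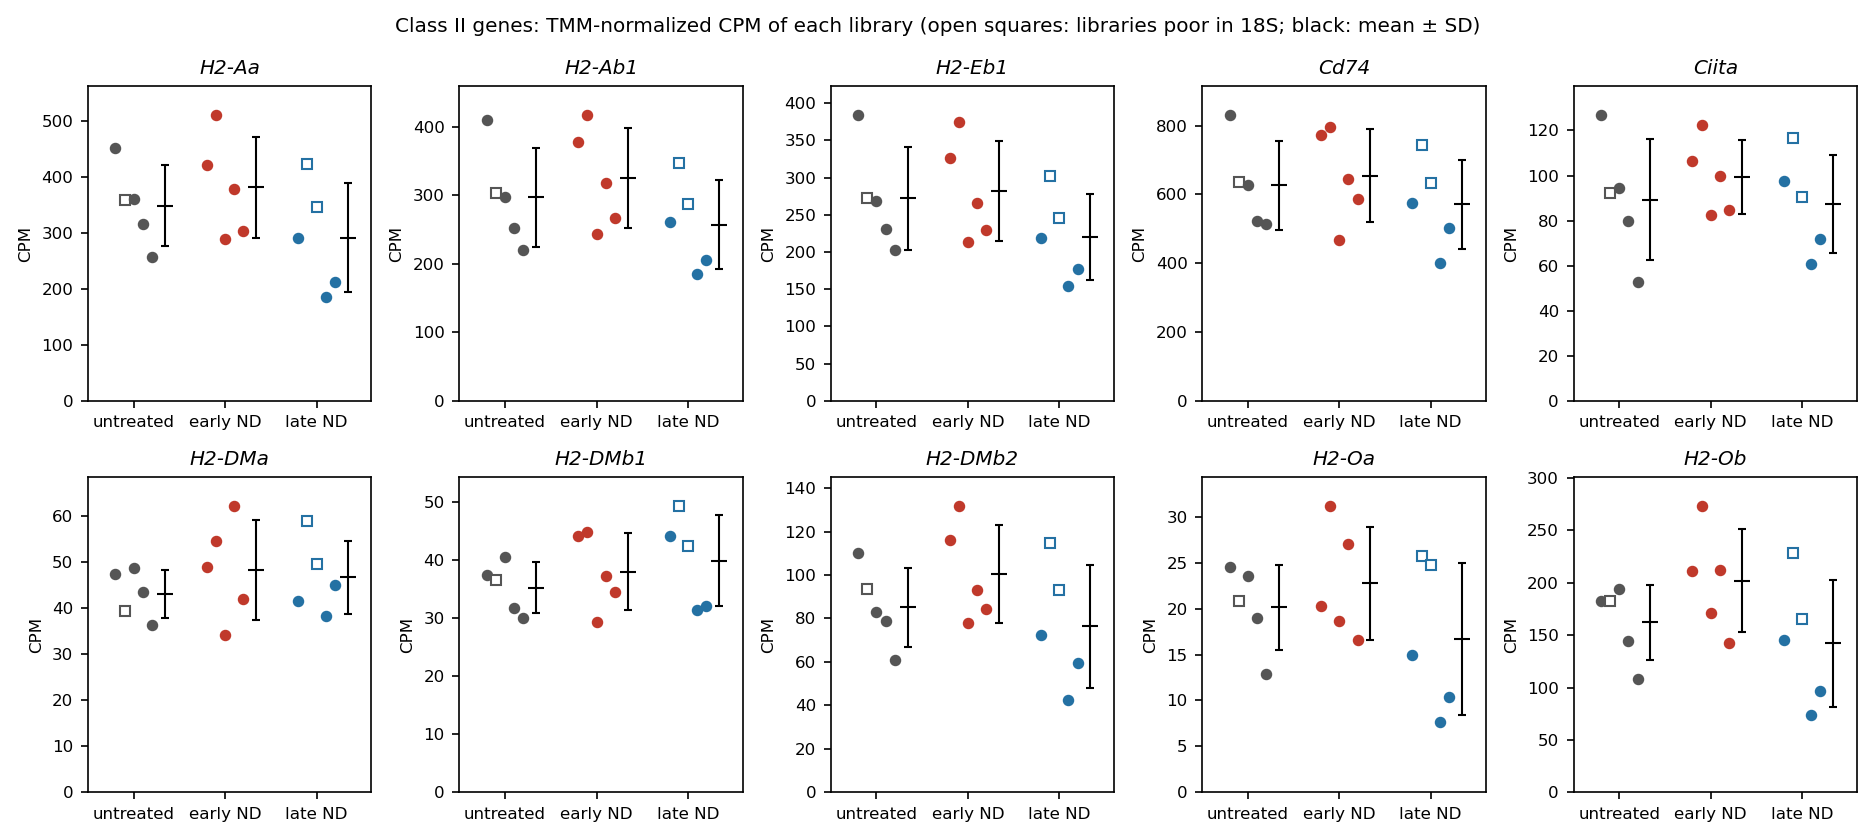
TMM-normalized CPM (vertical axes, from 0) of the 10 class II genes in 5 untreated, 5 early ND and 5 late ND mice, 1 point per library in the order of the replicate numbers, with the 3 libraries poor in 18S as open squares and the mean ± SD of each group in black. The groups overlap for every gene, and among late ND mice late 2 is highest and late 4 lowest for all 10.

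The same mice stood high or low for most of the genes. Late 2 was the highest and late 4 the lowest late ND library for all 10 members. Untreated 5 was the lowest untreated library for all 10, and untreated 1 the highest for 7. Among early ND mice, early 2 was highest for 9 members and early 3 lowest for 8. Late 2 is 1 of the libraries poor in 18S and late 4 is not. Summed over the members, the level was 1495 to 2608 CPM in untreated, 1629 to 2756 CPM in early ND and 1182 to 2409 CPM in late ND mice.

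Between genes, levels were compared per kilobase of the canonical transcript, as the mean CPM per kilobase over the 15 libraries. Cd74 led at 431, followed by H2-Aa at 302, H2-Ab1 at 242 and H2-Eb1 at 152, each above the next in 15 of 15 libraries. H2-Ob at 62.3 and H2-DMb2 at 59.8 could not be ordered, since H2-Ob was the higher in 7 of 15. H2-DMb2 exceeded H2-DMa (39.9) in 14 libraries, H2-DMa exceeded H2-DMb1 (26.8) in 15, and H2-DMb1 exceeded H2-Oa (16.4) in 15. Ciita was lowest at 12.3, below H2-Oa in 12 of 15 libraries. The regulator was thus counted at the lowest level per length of the 10, far below the chains whose transcription it drives.

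Late ND was compared with early ND first, the comparison that the study reported for blood. All 10 members were kept by the filter on low counts, and none passed the test (edgeR quasi-likelihood test, 5 mice against 5, adjusted p from 0.340 to 0.985), and none did at an unadjusted p under 0.05 or with DESeq2. The background was 663 of 13315 genes past the adjusted threshold (4.98%), and 23.8% at an unadjusted p under 0.05. No member had groups that did not overlap, against 5.91% of all genes. On the log2 scale 9 of 10 members had fold changes below 0, with a median of -0.31 against 0.014 over all genes tested, whereas with plain library totals in place of TMM all 10 were above 0. That scaling moved the median of all genes to 0.86, and the members' median of 0.55 stood below it there too.

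H2-Ob had the most negative log2 fold change, -0.47 (95% interval -1.07 to 0.14, edgeR adjusted p = 0.340). For H2-Oa it was -0.39 (-1.08 to 0.31), for H2-DMb2 -0.36 (-0.90 to 0.18) and for H2-Aa -0.35 (-0.87 to 0.17). H2-Eb1 at -0.32 and H2-Ab1 at -0.30 followed, then Cd74 at -0.16 and Ciita at -0.15. H2-DMa was at -0.0094 (-0.37 to 0.35) and H2-DMb1 at 0.10 (-0.25 to 0.45).

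Libraries poor in 18S bore on these values. Without late 2 and late 3, the log2 fold changes were -1.05 for H2-Oa, -0.94 for H2-Ob, -0.80 for H2-DMb2, -0.73 for H2-Aa, -0.62 for H2-Eb1 and -0.58 for H2-Ab1, and these 6 members were lower at an unadjusted p under 0.05, against 11% of all genes in that direction. Their smallest adjusted p was 0.0628 (edgeR), so none passed. The members' median moved to -0.60, and the B cell markers were lower there too, as given below. Without late 2 alone, 5 members were lower at an unadjusted p under 0.05 (11.3% of all genes in that direction), with a smallest edgeR adjusted p of 0.0916.

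Compared with untreated mice, late ND blood showed none of the 10 genes past the threshold (edgeR adjusted p from 0.545 to 0.990), and none at an unadjusted p under 0.05 or with DESeq2. Past the adjusted threshold were 406 of 13547 genes (3%), and 17.0% had an unadjusted p under 0.05. Groups that did not overlap occurred for no member and for 5.48% of genes. The log2 fold changes ran from -0.30 for H2-Eb1 (95% interval -0.76 to 0.17) to 0.19 for H2-DMb1 (-0.14 to 0.52), with a median of -0.16 against 0.0023 over all genes. H2-DMa (0.13) and H2-DMb1 were above 0 and the other 8 below, but with library totals all 10 were above 0. Without the libraries poor in 18S, H2-Oa (-0.86), H2-Aa (-0.61) and H2-Eb1 (-0.58) were lower at an unadjusted p under 0.05 (7.36% of all genes in that direction), with a smallest edgeR adjusted p of 0.214.

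Library totals were the setting under which members passed. With them 4 of the 10 were called higher in late ND than in early ND mice, against 67% of all genes, and 7 in late ND than in untreated mice, against 55.2% of all genes. The first 4 were Cd74, Ciita, H2-DMa and H2-DMb1 (log2 fold changes 0.71, 0.72, 0.90 and 0.95). Hemoglobin genes took 14.9% to 29.3% of counts in late ND and 38.3% to 64.1% in early ND libraries, and their part in these calls was not tested.

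Early ND and untreated mice were closest. No member passed (edgeR adjusted p from 0.938 to 0.989), none had an unadjusted p under 0.05, and DESeq2 called none. Of 12151 genes tested 0 passed the adjusted threshold (0%) and 539 had an unadjusted p under 0.05 (4.44%). DESeq2 called 1 gene. Groups that did not overlap were found for no member and 0.576% of genes. All 10 log2 fold changes were above 0, under TMM and under library totals, with a median of 0.14 against -0.0022 over all genes. They ran from 0.053 for H2-Eb1 (95% interval -0.39 to 0.49) to 0.31 for H2-Ob (-0.12 to 0.75). Without untreated 2, the library poor in 18S among these, all 10 were again above 0 and none passed (smallest edgeR adjusted p = 0.935). This comparison shares its untreated mice with the one before and its early ND mice with the first, so the 3 sets of values are not independent of each other.

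**Figure D2:**
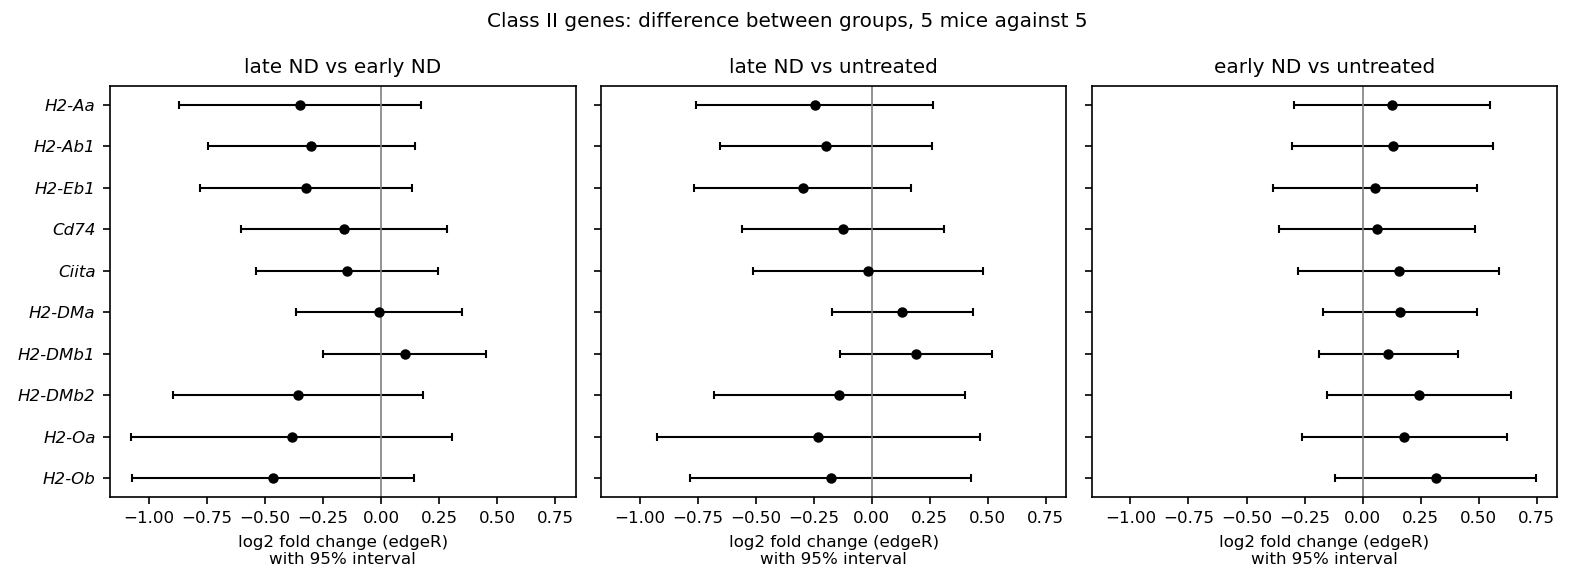
Log2 fold changes (horizontal axes) of the 10 class II genes in 3 comparisons of 5 mice against 5, as points with 95% intervals from edgeR; the grey line marks 0. Every interval includes 0, and H2-DMa and H2-DMb1 sit to the right of the other genes in both comparisons of late ND mice.

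A ratio of 2 genes within a library does not depend on how libraries are scaled, and 9 such ratios were compared between the 3 pairs of groups. Of the 27 two-sided exact permutation tests, 7 had an unadjusted p under 0.05 and none passed after adjustment over the 27 (smallest adjusted p = 0.0714). In 3 tests the groups did not overlap, which gives an exact permutation p = 0.00794, the smallest that 5 mice against 5 allow. After adjustment over the 27, a single ratio at that p could not pass by itself. Without the libraries poor in 18S the groups are smaller. The smallest possible exact permutation p is then 0.0179 for late ND against early ND and 0.0286 for late ND against untreated mice. Ratios are printed as counts per base of the canonical transcript, and differences on the log2 scale.

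The β chains of H2-DM gave 1 of those 3. H2-DMb2 to H2-DMb1 was 2.53, 2.81, 2.55, 2.40 and 2.35 in early ND mice and 1.58, 2.24, 2.11, 1.30 and 1.78 in late ND mice. Untreated mice had 2.82, 2.46, 1.96, 2.38 and 1.95. Every late ND value lay below every early ND value, a log2 difference of -0.51 ± 0.15 (SE, n = 5 and 5, exact permutation p = 0.00794, adjusted p = 0.0714). Without the libraries poor in 18S the difference was -0.71 (exact permutation p = 0.0179, adjusted p = 0.0964). Against untreated mice it was -0.37 ± 0.17 (exact permutation p = 0.0714, adjusted p = 0.214). Read pairs that both copies share, and the 17.0% of H2-DMb1 exon bases opposite Gm64535, may enter this ratio, and their part in it was not tested.

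The other 2 concern the β chains of I-E and I-A, whose ratio had the smallest spread. H2-Eb1 to H2-Ab1 was 0.670, 0.641, 0.645, 0.656 and 0.659 in untreated mice. In early ND mice it was 0.616, 0.641, 0.626, 0.600 and 0.617, and in late ND mice 0.601, 0.622, 0.611, 0.599 and 0.615. Both antibody-treated groups lay below the untreated one, by log2 differences of -0.078 ± 0.019 in early ND mice (SE, exact permutation p = 0.00794, adjusted p = 0.0714) and by -0.10 ± 0.015 in late ND mice (same p and adjusted p), with early 2 at 0.6411 directly below untreated 2 at 0.6414. The ratios were 0.947 and 0.932 times the untreated one, neither passed after adjustment, and both comparisons rest on the same untreated mice. Late ND and early ND differed by -0.024 ± 0.019 (SE, exact permutation p = 0.222, adjusted p = 0.353), and their values overlapped.

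None of the ratios of the accessory genes or chains to H2-Ab1 passed after adjustment. Cd74 to H2-Ab1 was 1.61 to 1.87 in early ND and 1.81 to 2.06 in late ND mice, a log2 difference of 0.14 ± 0.051 (SE, exact permutation p = 0.0317, adjusted p = 0.171). Ciita to H2-Ab1 was higher in late ND than in untreated mice by 0.20 ± 0.087 (SE, exact permutation p = 0.0238, adjusted p = 0.161). The α chain to β chain ratio of I-A, H2-Aa to H2-Ab1, was 1.08 to 1.35 over all 15 libraries, with late 4 (1.08) and late 5 (1.104) below all others (late ND against early ND -0.076, exact permutation p = 0.262, adjusted p = 0.372). Without the libraries poor in 18S this difference was -0.16 (exact permutation p = 0.0179, adjusted p = 0.0964), while that of Cd74 to H2-Ab1 was 0.17 (exact permutation p = 0.0714, adjusted p = 0.161).

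The balance of H2-O and H2-DM is known to set how far peptide editing is restrained in B cells. H2-Ob to H2-DMa was 1.44 to 2.13 in early ND mice and 1.49, 1.65, 1.42, 0.820 and 0.913 in late ND mice, a log2 difference of -0.54 ± 0.24 (SE, exact permutation p = 0.0635, adjusted p = 0.214). H2-Oa to H2-DMa differed by -0.52 ± 0.28 (SE, exact permutation p = 0.111, adjusted p = 0.273). Late 4 and late 5 held the lowest values of both ratios among the 15 libraries, and neither difference passed. Without the libraries poor in 18S the differences were -0.77 for H2-Ob to H2-DMa (exact permutation p = 0.0714, adjusted p = 0.161) and -0.87 for H2-Oa to H2-DMa (exact permutation p = 0.0179, adjusted p = 0.0964).

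**Figure D3:**
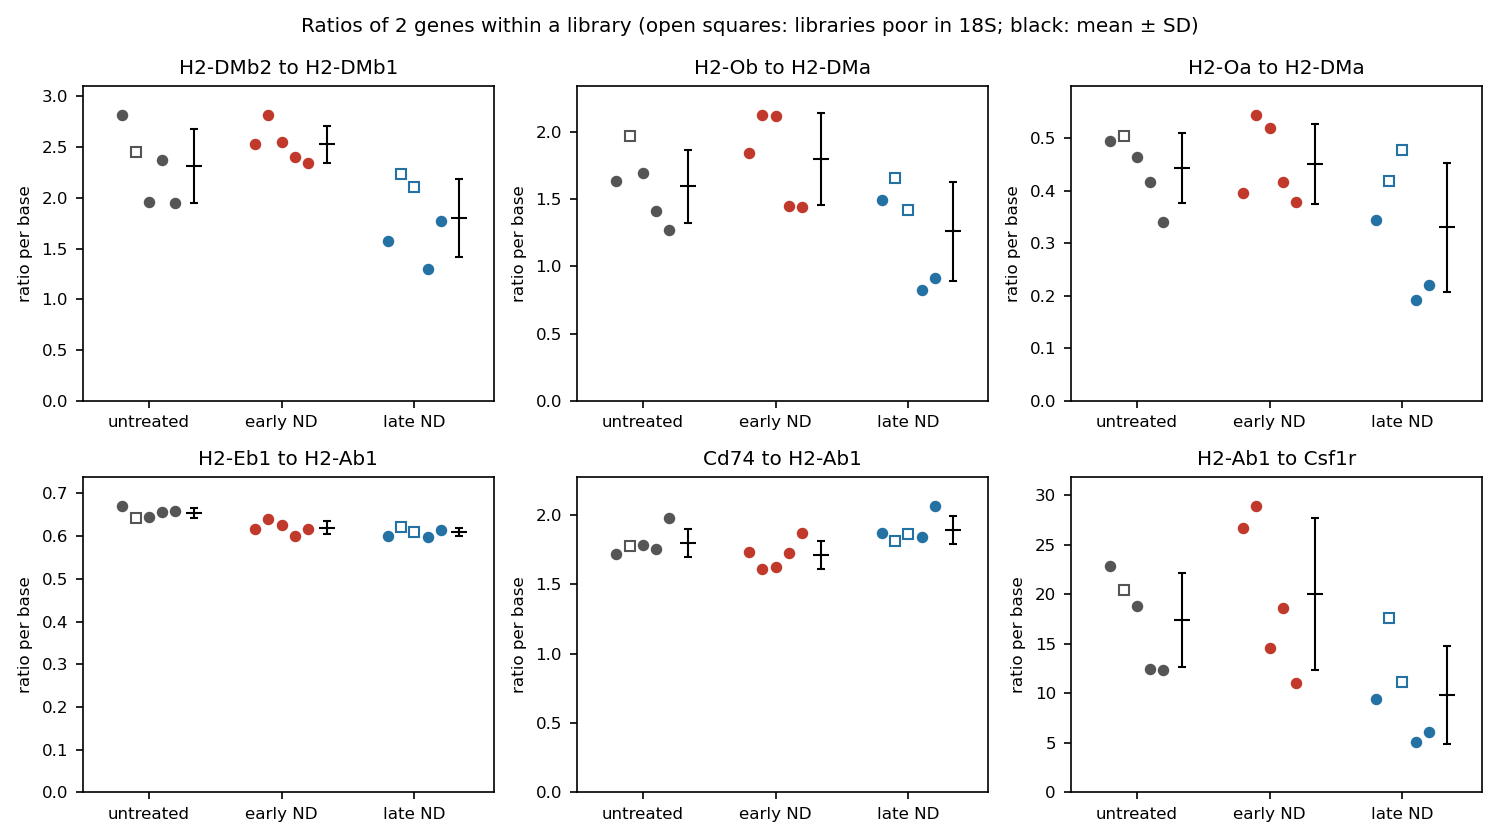
Ratios of 2 genes within a library (vertical axes, counts per base of the canonical transcript, from 0) in untreated, early ND and late ND mice, 1 point per library, with libraries poor in 18S as open squares and mean ± SD in black. H2-DMb2 to H2-DMb1 is lower in all 5 late ND than in all 5 early ND mice, and H2-Eb1 to H2-Ab1 spans 0.599 to 0.670 over all 15.

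How closely the genes moved together was described by the SD over the 15 libraries of the log2 ratio of 2 genes, which is small for genes in a steady ratio. The points share their libraries and their depth, so no test was made. H2-Ab1 and H2-Eb1 were each other's nearest gene among the 9453 others compared, with an SD of 0.052, where the median over all genes was 0.45 for H2-Ab1 and 0.46 for H2-Eb1. The gene nearest to H2-Aa was Ighm, the heavy chain of IgM made by B cells (0.072), then H2-Eb1 (0.087). Cd74 was nearest to H2-Ab1 (0.096), and its nearest genes outside the members were Bmi1 (0.13), Fcmr, an IgM receptor (0.13), and Pold1 (0.13). Ciita was nearest to Idua (0.14) and, among the members, to H2-Ab1 (0.15).

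The H2-DM and H2-O genes split into 2 kinds. H2-DMb2 was nearest to H2-Aa (0.097), then to the B cell transcription factor Pax5 (0.10), to Ighm (0.10) and to the B cell receptor subunit Cd79b (0.13). H2-Ob was nearest to Cd79b (0.11) and Ighd, the heavy chain of IgD (0.12). H2-Oa was nearest to H2-Ob (0.17), Cd79b (0.17), Ighd (0.21) and Blk, a B cell kinase (0.22). H2-DMa, in contrast, was nearest to Trp53, Npepl1 and Cops7b, and H2-DMb1 to Unk, Snx5 and Coro7, genes that are not B cell markers. H2-DMa and H2-DMb1 were each other's nearest member (0.18), yet H2-DMb1 ranked 85 among the genes nearest to H2-DMa. The largest SD within the set was that of H2-Oa and H2-DMb1 (0.45).

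**Figure D4:**
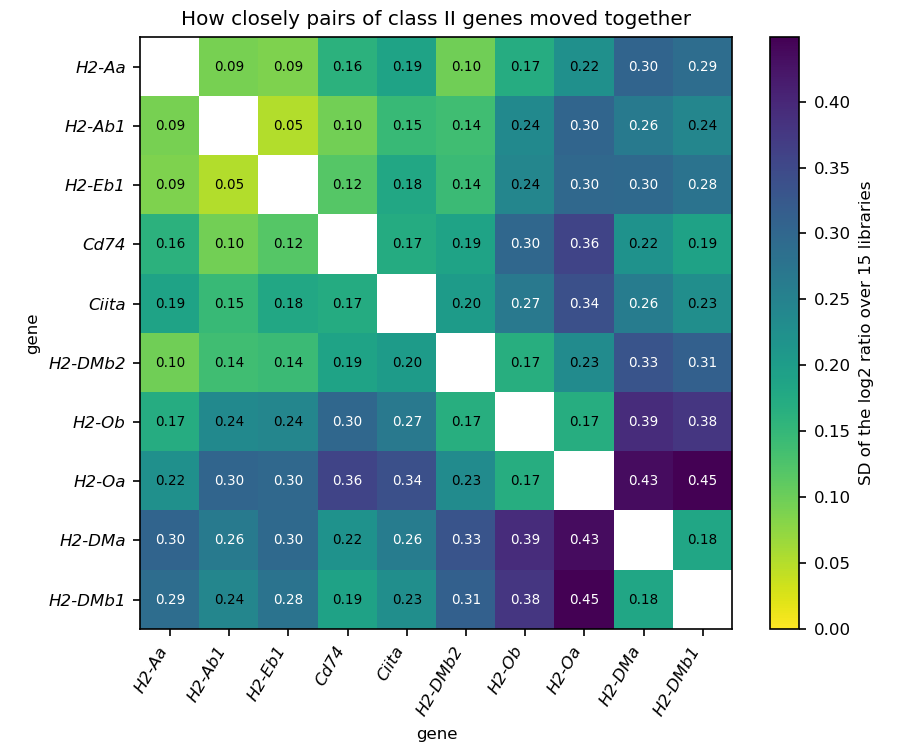
SD over 15 libraries of the log2 ratio of each pair of class II genes (both axes list the genes; color and numbers give the SD, lighter for pairs in a steadier ratio). H2-Aa, H2-Ab1 and H2-Eb1 form the closest group at 0.05 to 0.09, and H2-DMa and H2-DMb1 stand farthest from H2-Oa and H2-Ob at 0.38 to 0.45.

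Levels in whole blood cannot tell fewer cells of a type from less RNA per cell, so the cell markers are given beside the class II genes. The 12 B cell markers summed to 924 to 1395 CPM in untreated, 1074 to 1874 CPM in early ND and 584 to 1664 CPM in late ND mice, and none was at 0 in any library. The lowest sum was in late 4, the lowest of all libraries for 7 of the 10 members, and the highest in early 2, the highest for 5. In late ND against early ND 0 of 12 passed (edgeR; 1 was lower at an unadjusted p under 0.05), with a median log2 fold change of -0.41. DESeq2 called 1 of the 12, against 1484 of 13290 genes. Without the libraries poor in 18S the 12 ran from -0.61 (Cd22, edgeR unadjusted p = 0.0503) to -1.02 (Cr2, edgeR unadjusted p = 0.00131). None passed there (smallest edgeR adjusted p = 0.0561), and 11% of all genes were lower at an unadjusted p under 0.05. The members' summed level divided by that of the B cell markers was 1.47 to 1.87 in untreated, 1.47 to 1.67 in early ND and 1.45 to 2.02 in late ND mice, with medians of 1.62, 1.56 and 1.71. H2-Ab1 to Cd79a, a subunit of the B cell receptor, differed by -0.053 ± 0.14 between late and early ND (SE, exact permutation p = 0.738, adjusted p = 0.840), with a value of 0.14 when libraries poor in 18S were left out.

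Some markers of other class II-bearing cells rose in late ND blood, and the counts of each list stand against the 4.98% of all genes called in late ND against early ND mice and the 3% called against untreated mice. The calls on these lists and on those below depended on the libraries poor in 18S. Without these, 1 of the 17 listed genes called against early ND mice still passed, and 0 of the 13 called against untreated mice (edgeR adjusted p from 0.0249 to 0.147 and from 0.104 to 0.267). All 17 and all 13 kept their direction and had an unadjusted p under 0.05 there. They had been picked as called in fits that include the same libraries, so this is no independent support. Over all genes, 1732 were higher and 1481 lower of 13440 at that unadjusted p against early ND mice. Against untreated mice 956 were higher and 961 lower of 13051. Of the 9 monocyte markers 2 rose in late ND against early ND mice, among them Csf1r, the receptor of a monocyte growth factor (log2 fold change 0.75 ± 0.19 SE, edgeR adjusted p = 0.0425). The list summed to 574 to 1279 CPM in early ND and 941 to 1489 CPM in late ND mice. Of 8 dendritic cell markers tested 3 rose, Cd209a (1.22), Clec10a (1.15) and Flt3 (0.94), on levels of 1.08 to 12.8 CPM. Xcr1 and Clec9a, markers of type 1 conventional dendritic cells, were at -0.67 (edgeR adjusted p = 0.232) and -0.040 (edgeR adjusted p = 0.939). The sum of all 9 was 31.4 to 47.9 CPM in early ND and 54.4 to 68.4 CPM in late ND mice, without overlap, and Zbtb46, which was not tested, was at 0 in at least 1 library. Against untreated mice Ccr2 (1.11) and Csf1r (0.73), and Flt3 (1.28), Cd209a (1.60) and Clec10a (1.39), were higher in late ND blood.

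The ratio of H2-Ab1 to the monocyte marker Csf1r was 26.7, 28.9, 14.6, 18.6 and 11.1 in early ND mice, 9.45, 17.6, 11.1, 5.12 and 6.05 in late ND mice and 12.4 to 22.9 in untreated mice. The log2 difference was -1.07 ± 0.41 against early ND (SE, exact permutation p = 0.0476, adjusted p = 0.184) and -0.91 ± 0.37 against untreated mice (SE, exact permutation p = 0.0397, adjusted p = 0.179). Without the libraries poor in 18S they were -1.50 (exact permutation p = 0.0179, adjusted p = 0.0964) and -1.27 (exact permutation p = 0.0286, adjusted p = 0.0964). Neither passed after adjustment, and Csf1r itself rose.

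Lists of other blood cells changed in part. Of 8 erythroid markers 5 fell in late ND against early ND mice, among them Slc4a1 (-2.75), Epb42 (-2.89) and Alas2 (-2.18). The plasma cell gene Jchain rose (1.61), 1 of 2 plasma cell markers tested. No T cell (6), neutrophil (7) or platelet (4) marker passed in that comparison with edgeR, although 6 of the 7 neutrophil markers were higher at an unadjusted p under 0.05 (S100a9, of highest level, at 1.06). DESeq2 called 5 of the 7 neutrophil markers higher, S100a8, S100a9, Cxcr2, Csf3r and Retnlg (DESeq2 adjusted p from 0.0040 to 0.0423), and no T cell or platelet marker. Lck (-0.27) and Ppbp (-0.48) were the T cell and platelet markers of highest level. Against untreated mice, 4 erythroid markers and the T cell receptor subunit Cd3g (-0.63) fell in late ND mice. The part of these shifts in the class II values was not tested.

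Of the 7 factors that bind class II promoters upstream of transcription (RFX, NF-Y and CREB subunits) 1 rose in late ND against early ND mice, Nfya, the NF-Y subunit that contacts the Y box (log2 fold change 0.38 ± 0.098 SE, edgeR adjusted p = 0.0466). Its level was 31.3 to 38.6 CPM in early ND and 40.6 to 48.9 CPM in late ND mice, without overlap. Of 10 tested regulators of Ciita 2 rose, the interferon-γ receptor chains Ifngr1 (0.57 ± 0.14 SE, edgeR adjusted p = 0.0392) and Ifngr2 (0.53 ± 0.13 SE, edgeR adjusted p = 0.0423). Ifngr1 was at 80.8 to 109 CPM in early ND and 105 to 165 CPM in late ND mice. Ifng itself had 0 to 7 counts per library and was not tested. The medians of the 2 lists were 0.11 and 0.012.

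Downstream, 1 of 12 genes of antigen processing and class II turnover fell in late ND against early ND mice, Marchf8, a ubiquitin ligase (-1.09 ± 0.23 SE, edgeR adjusted p = 0.0232). It was at 23.1 to 52.6 CPM in early ND, 12.2 to 20.8 CPM in late ND and 15.6 to 44.6 CPM in untreated mice. Erythroid markers fell in the same comparison, as given above, and their part in this value was not tested. Marchf1, the ligase known for removing class II molecules from resting B cells, was at 0.0088 (edgeR adjusted p = 0.980). Against untreated mice 2 of the 12 rose in late ND blood, Ifi30, a lysosomal thiol reductase (0.83 ± 0.19 SE, edgeR adjusted p = 0.0369), and Ctsh, a lysosomal protease (0.42 ± 0.10 SE, edgeR adjusted p = 0.0468). Ctss, the cathepsin that trims the invariant chain in B cells and dendritic cells, was at 0.43 against early ND mice (edgeR adjusted p = 0.278).

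Of 8 costimulators and class II receptors tested, Cd80 rose (1.03 ± 0.26 SE, edgeR adjusted p = 0.0418) and Cd274, which encodes PD-L1, fell (-0.67 ± 0.11 SE, edgeR adjusted p = 0.0126) in late ND against early ND mice. Cd274 was at 35.6 to 40.4 CPM in early ND, 19.7 to 29.7 CPM in late ND and 21.3 to 32.8 CPM in untreated mice. Early ND values thus lay above those of both other groups, where 5.91% (late ND) and 0.576% (untreated) of all genes did not overlap. In early ND against untreated mice Cd274 was not called (0.52, edgeR adjusted p = 0.938). Cd86, the other ligand of CD28, was at 0.092 (edgeR adjusted p = 0.791), and Cd4, the T cell receptor partner that binds class II, at -0.27 (edgeR adjusted p = 0.369). H2-Eb2, a further class II β chain gene with both promoter motifs, was at 15.9 to 27.5 CPM in early ND and 6.57 to 18.8 CPM in late ND mice (-0.58, edgeR adjusted p = 0.180). No gene of these lists passed in early ND against untreated mice. In lists without a called gene, the gene of highest level was at -0.34 (H2-Eb2), 0.094 (Creb1), -0.0081 (Jak1), 0.11 (Icosl), 0.56 (Jchain), -0.043 (S100a9) and -0.57 (Ppbp) on the log2 scale in late ND against untreated mice. In early ND against untreated mice it was at 0.26 (H2-Eb2), -0.028 (Creb1), 0.050 (Jak1), 0.13 (Ctsb), 0.26 (Icosl), 0.16 (F13a1), 0.10 (Itgax) and -0.18 (Lck), and at -1.03 (Jchain), -1.09 (S100a9), -0.16 (Hbb-bs) and -0.070 (Ppbp).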

How the data were processed

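Whole blood RNA of 15 mice was analysed in 3 groups of 5 set by the sample titles. The authors deposited unnormalized counts of read pairs per Ensembl gene, made per the labels with STAR 2.7.9 on GRCm39 (the submitters' notes also name mm10), SAMtools 1.7 and HTSeq 0.13.5. Counters of unassigned reads (75.6% to 88.1% of each file's total) were left out. Symbols came from the GENCODE annotation of GRCm39, which held 54749 of 55416 identifiers and 110 of 111 listed symbols. Each pair of groups was fitted with edgeR 4.0.16 in R 4.3.3 (filterByExpr, TMM, quasi-likelihood test, Benjamini-Hochberg adjustment over all genes tested, threshold 0.05), checked on simulated counts. DESeq2 1.42.0, other scalings and filters, left-out libraries and a replicate block were alternatives. Ratios used counts with 0.5 added (two-sided exact permutation tests over all assignments of the libraries to the groups compared). Likeness was computed for genes averaging 50 counts or more per library. All 10 members are named. Of the other lists every gene past the threshold is named, at most 4 per list and comparison by adjusted p, or else the gene of highest level. Further genes were named after their values were seen, among them Marchf1, Ctss, Cd86, Cd4, Xcr1, Clec9a, Zbtb46, Cr2, Cd22 and the neutrophil markers called by DESeq2. A few genes that this rule would name are not reported here. Members, lists and promoter motifs were chosen with earlier results of these data known. Lower depth limits the precision of low genes, and p-values measure the spread between mice as labelled.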

Additional observations from a re-analysis of the deposited data

Results flagged for a closer look

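In groups of 5, a library was flagged where its gap to the nearest other library exceeded Dixon's 95% critical value of 0.71 times the range of its group. Of 57 groups tested (members and ratios) 3 were flagged, where chance flags about 1 in 20. The log2 ratio of Cd74 to H2-Ab1 was 1.22 in untreated 5, above the other untreated mice, and 1.29 in late 5, above the other late ND mice. The log2 ratio of Ciita to H2-Ab1 was -2.06 in untreated 5, below the other untreated mice. Untreated 5 was also the untreated library lowest in all 10 genes.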

How the results depend on the processing

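The count of members past the adjusted threshold was 0 in all 3 comparisons under all alternatives except library totals. With library totals it was 4 (late ND against early ND) and 7 (late ND against untreated). None of the 27 ratio tests passed under any alternative. Under the replicate block none could, and under the others a single separated ratio could not pass by itself. Library totals turned log2 fold changes to above 0. For late ND against early ND these were 0.52 (H2-Aa), 0.56 (H2-Ab1), 0.53 (H2-Eb1), 0.71 (Cd74), 0.72 (Ciita), 0.90 (H2-DMa), 0.51 (H2-DMb2), 0.53 (H2-Oa) and 0.42 (H2-Ob). For late ND against untreated they were 0.77 (H2-Aa), 0.82 (H2-Ab1), 0.72 (H2-Eb1), 0.88 (Cd74), 1.01 (Ciita), 0.86 (H2-DMb2), 0.78 (H2-Oa) and 0.82 (H2-Ob). Without a filter, H2-DMa was at 0.073 against early ND and Ciita at 0.045 against untreated. Without the libraries poor in 18S, H2-DMb1 was at -0.087 against early ND and H2-DMa at -0.088 against untreated, and H2-Ab1 to Cd79a at 0.14, 0.12 and -0.018 in the 3 comparisons. The cause of these turns was not tested. Leaving these libraries out of the values of the other listed genes was an alternative chosen after seeing the data.

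Genes called in late ND against early ND were 663, but 1484 with DESeq2, 9060 with library totals, 1282 without a filter, 4 without the libraries poor in 18S and 145 to 1610 with 1 library left out. For late ND against untreated they were 406, but 816, 7574 and, without the libraries poor in 18S, 0, and 0 to 593 with 1 library left out (0 without untreated 3, late 1, late 4 or late 5). For early ND against untreated they were 0, but 1 with DESeq2 and 3 with library totals. With 1 library left out, small values changed sign. Against early ND, late ND values ran from -0.14 to 0.083 for H2-DMa, from -0.020 to 0.16 for H2-DMb1 and from -0.14 to 0.023 for H2-Ab1 to Cd79a. Against untreated they ran from -0.26 to 0.0011 for Cd74, from -0.17 to 0.14 for Ciita and from -0.13 to 0.032 for H2-Ab1 to Cd79a. Early ND against untreated ran from -0.025 to 0.18 for Cd74, from -0.0081 to 0.23 for H2-Aa, from -0.078 to 0.20 for H2-Eb1, from -0.015 to 0.093 for Ciita to H2-Ab1, from -0.036 to 0.011 for H2-Aa to H2-Ab1, from -0.032 to 0.066 for H2-Ab1 to Cd79a, from -0.00058 to 0.35 for H2-Ab1 to Csf1r and from -0.069 to 0.082 for H2-Oa to H2-DMa.

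Same-numbered libraries did not deviate together in every pair (correlations from -0.31 to 0.60). In late ND against untreated mice all 5 correlations were positive (0.034 to 0.60). Such correlations cannot settle whether the numbers pair the mice. With a replicate block 673, 607 and 0 genes and 0 members were called in the 3 comparisons, and the smallest p of the ratio tests over 5 pairs was 0.0625. Own number was the best match in 1, 3 and 0 of 5 late ND or early ND mice. With 5 mice a group and wide spread among late ND mice, the intervals of H2-Oa and H2-Ob in late ND against early ND reach beyond a log2 fold change of -1 and include 0.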
